A study of Mus musculus with 34 samples.

Results

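The genes followed here, 36 in number, belong to the endoplasmic reticulum (ER) and were measured across 34 bulk RNA-seq libraries of mouse CD4 T cells. They were taken from the count tables by name, as 36 of 27179 gene identifiers. Earlier results of these data were known when they were chosen. By role they were 11 chaperones and co-chaperones, 4 disulfide isomerases, 4 stress sensors and factors, 8 genes of ER-associated degradation and 9 genes of the translocon and signal peptidase. By its title, the study concerns how TGF-β steers CD4 T cells to T follicular helper or TH17 fates, with the transcription factor c-Maf in between. Naive CD4 T cells of C57BL/6 mice were activated on plate-bound antibodies to CD3 and CD28, kept in culture for 3.5 days and sorted. RNA was counted by 3′ tag sequencing, which reads the end of a transcript. The labels name the groups by a code and a number: Tfh2_1e4 (6 libraries), Tfh2_2e4 (5), Tfh2_4e4 (6), Tfh2_6e4 (6), Tfh5_4e4 (6) and TfhA_4e4 (5). What the codes stand for, the unit of the number and the sort gates are not given in the sources used here, so the groups keep their label names. All 6 groups shared the strain, the activation and the length of culture.

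Proteins that enter the secretory pathway pass through the SEC61 channel into the ER, lose their signal peptide, and are folded there by chaperones such as BiP (Hspa5) and GRP94 (Hsp90b1). When unfolded protein accumulates, the sensors IRE1 (Ern1), PERK (Eif2ak3) and ATF6 start the unfolded protein response. ATF6 and the spliced form of XBP1 raise chaperones, translocon parts and degradation genes, whereas PERK slows translation through eIF2α and raises Atf4 and its targets. Lymphocytes that divide and secrete enlarge this machinery, most of all plasma cells.

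The ER stress element, CCAAT followed by 9 bases and CCACG, is the promoter sequence through which ATF6 and the CCAAT-binding factor NF-Y act on ER chaperone genes. RefSeq promoters (build GRCm38.p6, 250 bases before to 50 after the start of the gene) were at hand for 30 of the 36 genes. Dnajc3, Hspa5, Hsp90b1, Creld2, Calr, Canx, Pdia6, Syvn1 and Derl3 held the element on one strand or the other, which is 9 of 30. Of 8853 tested genes with a promoter 15 held it (0.169%), and it stood in 39 of 32851 promoters listed (0.119%). Those 15 include the 9 genes just named. The 36 genes were chosen for their ER role, so the shares are not independent of that choice. On the gene's own strand alone it stood in 6 of the 30 genes and in 8 of the tested genes. The stretches before the start are shown for 6 of the 9 genes, because they carry the element in front of genes that differ in level below. Capitals mark the element, which on the opposite strand reads CGTGG, 9 bases, ATTGG.
Hspa5: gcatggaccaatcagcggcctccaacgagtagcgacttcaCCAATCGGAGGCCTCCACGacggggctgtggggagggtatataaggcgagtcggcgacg
Hsp90b1: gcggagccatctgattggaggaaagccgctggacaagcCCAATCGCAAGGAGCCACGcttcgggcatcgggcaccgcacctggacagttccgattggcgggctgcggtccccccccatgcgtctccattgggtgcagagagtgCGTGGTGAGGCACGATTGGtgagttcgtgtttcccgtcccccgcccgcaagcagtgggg
Pdia6: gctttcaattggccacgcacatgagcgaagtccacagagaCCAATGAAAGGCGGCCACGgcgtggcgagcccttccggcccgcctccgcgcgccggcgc
Creld2: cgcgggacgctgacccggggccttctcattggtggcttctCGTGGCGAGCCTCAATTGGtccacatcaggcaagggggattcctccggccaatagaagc
Dnajc3: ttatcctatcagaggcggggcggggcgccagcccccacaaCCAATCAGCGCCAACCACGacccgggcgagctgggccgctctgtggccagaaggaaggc
Canx: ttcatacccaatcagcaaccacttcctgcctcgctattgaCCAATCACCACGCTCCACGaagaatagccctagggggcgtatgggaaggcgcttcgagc
The Hspa5 stretch is chr2:34771985-34772083 on the plus strand, and its element begins 65 bases before the start. For Hsp90b1 the stretch is chr10:86705493-86705694 on the minus strand, with 2 elements that begin 212 and 107 bases before the start. The others are chr12:17266451-17266549 (Pdia6, plus strand, 98 bases before), chr15:88819480-88819578 (Creld2, plus strand, 126), chr14:118937787-118937885 (Dnajc3, plus strand, 105) and chr11:50325760-50325858 (Canx, minus strand, 145).

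A second form of the element, ATTGG, 1 base and CCACG, stood in the promoters of Herpud1 and Dnajb11, 2 of 30. It stood in 8 of the 8853 tested genes, these 2 among them. In Dnajb11 the match lay in the transcribed part. In Herpud1, whose product helps degrade ER proteins, it began 52 bases before the start, and it is shown because Herpud1 goes with the chaperones in one comparison below and apart from them in another.
Herpud1: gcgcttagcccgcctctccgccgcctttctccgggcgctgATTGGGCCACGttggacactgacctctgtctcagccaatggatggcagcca
This stretch is chr8:94386337-94386427 on the plus strand. Searched on both strands, the XBP1 element TGACGTGG had no match in the 30 promoters and a match in 94 tested genes. The element bound by ATF4 with C/EBP proteins, searched as TGATGAAA or TGATGCAA, matched in Herpud1 and in 123 tested genes. The core CCACG, which is part of both ER stress elements, stood in 24 of the 30 promoters and in 53.3% of those of all tested genes. A match describes the letters of these windows and no binding.

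Total counts ran from 4481509 to 9934245 a library, and the 36 genes together held 9419 to 34153 of them. The 6 T cell marker genes (Cd3d, Cd3e, Cd3g, Cd4, Cd5 and Lck) were present in each group, with a summed level of 1153 to 1582 CPM (counts divided by the TMM-normalized library size). Myeloid and antigen-presenting cell markers summed to 1.76 to 10.4 CPM in Tfh2_1e4 and to 84.8 to 104 CPM in Tfh2_6e4. Most of that sum was H2-Ab1, a class II gene, with 1.83 (SE 0.09) on the log2 scale per doubling of the number, while Lyz2 and H2-Aa had no count in Tfh2_6e4. B and plasma cell markers summed to 6.996 to 27.1 CPM over all libraries, with Cd79a, Ms4a1, Pax5 and Mzb1 at 0 in Tfh2_6e4. CD8 T and NK cell markers summed to 13.2 to 22.5 CPM in TfhA_4e4 and to 4.10 to 14.0 CPM in the other groups. Mitochondrial rRNA took 12.6% to 17.3% of the counts outside the 2 most abundant identifiers in TfhA_4e4, 8.06% to 11.1% in Tfh2_4e4 and 8.37% to 11.1% in Tfh5_4e4. Along the number it was 5.78% to 9.95% in Tfh2_1e4 and 8.46% to 11.5% in Tfh2_6e4. The part of the marker genes in the results on ER genes was not tested, and fits with the rRNA share as a covariate are given with the results. Replicate 3 of Tfh2_4e4 and replicate 6 of Tfh2_2e4 stood apart: the 20 genes with the largest rise in TfhA_4e4 over Tfh5_4e4 summed to 99.25 and 51.8 CPM in them. In TfhA_4e4 these genes summed to 427 to 488 CPM, and in the other 27 libraries to at most 5.71 CPM. Without this pair of libraries the ER genes called were 22 lower and 4 higher for the slope, 8 lower and 0 higher in Tfh2_4e4 against Tfh2_2e4, and 0 in each of the other steps. They were 2 higher and 5 lower in TfhA_4e4 against Tfh2_4e4, 5 higher and 9 lower in TfhA_4e4 against Tfh5_4e4, and 0 and 0 in Tfh5_4e4 against Tfh2_4e4. In bulk RNA, fewer cells of a type and less RNA per cell cannot be told apart. The labels do not say that libraries of a group came from separate animals or cultures, so p-values measure the spread between these libraries, which may be technical.

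Across the Tfh2 groups most of the chaperones and isomerases among the 36 genes were lower where the number was higher. In the edgeR quasi-likelihood test of the slope on log2 of the number, 21 of the 36 genes fell and 4 rose at an adjusted p under 0.05. Of all 11357 genes tested, 22.8% fell and 24.1% rose. The median slope was -0.14 on the log2 scale per doubling over the 36 genes and -0.00 over all genes. By role, 9 of 11 chaperones, 3 of 4 isomerases, 1 of 4 sensors, 3 of 8 degradation genes and 5 of 9 translocon and signal peptidase genes fell. P4hb, Atf6, Ssr1 and Ssr3 rose. Mitochondrial rRNA rose along the same slope (2 of 2 genes called, median 0.16), as did 4 of the 6 T cell markers (1 fell, median 0.17). With the rRNA share as a covariate 18 ER genes fell and 4 rose, and the calls on Pdia4, Eif2ak3 and Sec61a1 were lost. With library totals in place of TMM factors the median of all genes moved by -0.11, the share of risers among called genes moved from 51.3% to 28.8%, and 25 ER genes fell and 2 rose.

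**Figure D1:**
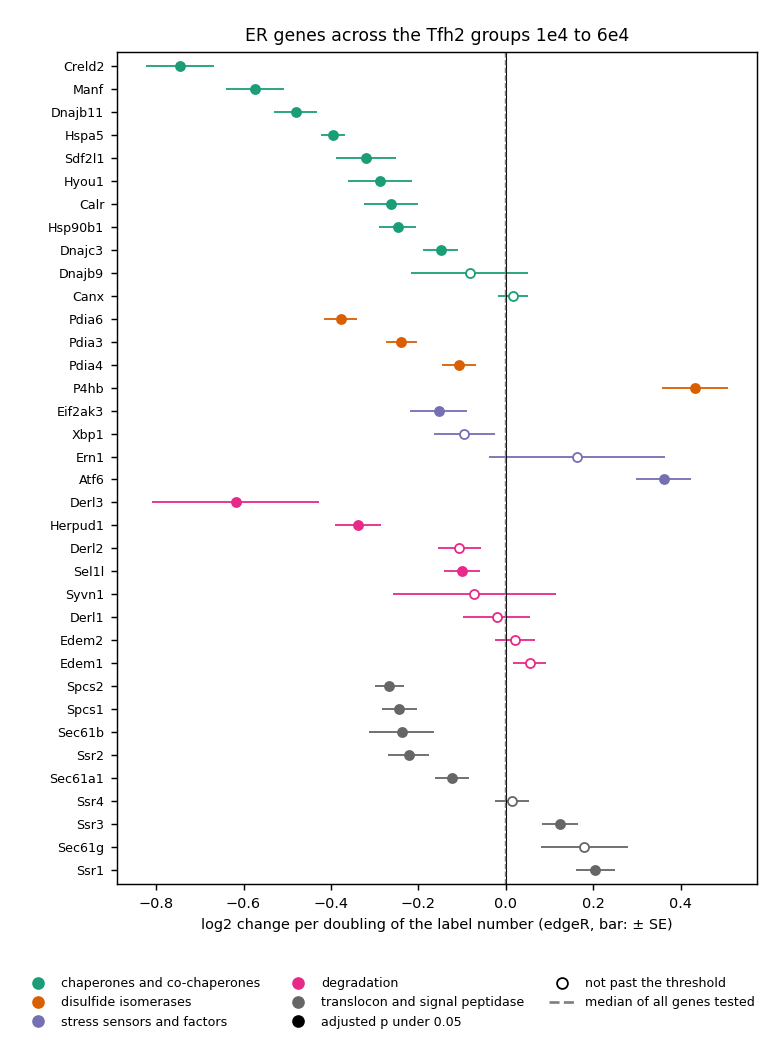
Slope of each ER gene across the Tfh2 groups, in log2 units per doubling of the number in the label (x axis), with 1 gene a line and bars for the standard error. Filled points have an adjusted p under 0.05; chaperones at the top lie left of 0 except Canx, and P4hb, Atf6, Ssr1 and Ssr3 are the filled points on the right.

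Summed over all 36 genes, the level was 3030.1 ± 103 CPM in Tfh2_1e4 (SD, n = 6) and 2912 ± 37.6 in Tfh2_2e4 (n = 5). It was 2389.5 ± 53.4 in Tfh2_4e4 (n = 6) and 2253 ± 52.4 in Tfh2_6e4 (n = 6). The lowest library of the 2 lower numbers had 2872 CPM and the highest library of the 2 upper numbers 2477 CPM, so these groups did not overlap. As a share of counts outside the 2 most abundant identifiers, which no scaling factor touches, the 36 genes took 0.588% to 0.640% at 1e4 and 0.561% to 0.599% at 2e4. At 4e4 the range was 0.442% to 0.472%, and at 6e4 it was 0.405% to 0.450%. In that share too, each library of the 2 lower numbers was above each library of the 2 upper ones.

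**Figure D2:**
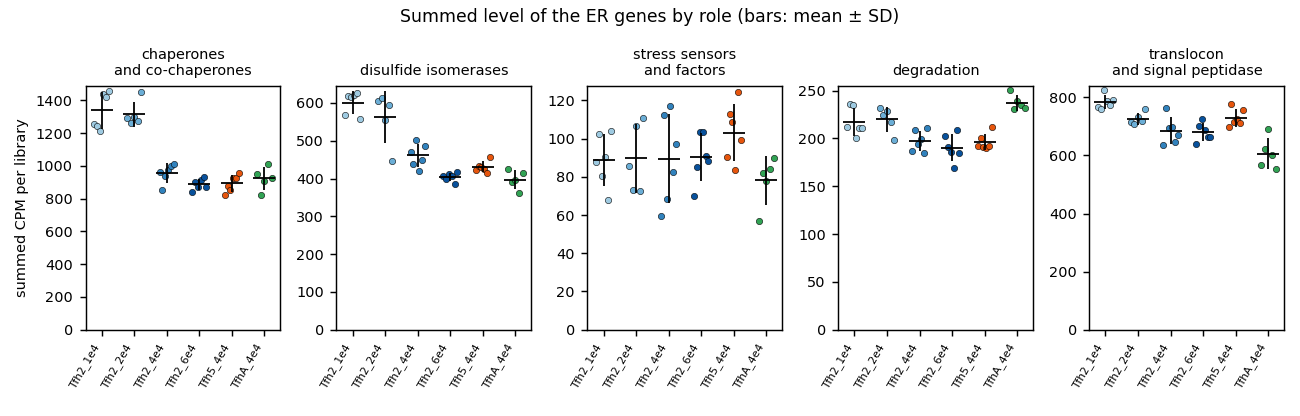
Summed CPM of the ER genes of each role in every library (points), by group, with bars for the mean and SD on axes that start at 0. Chaperones sum to 1215 to 1457 CPM in Tfh2_1e4 and to 842 to 929 CPM in Tfh2_6e4, while the sensors' sums overlap in all groups and the sum of the degradation genes is highest in TfhA_4e4.

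Hspa5 encodes BiP, the most abundant ER chaperone and the partner that keeps the sensors inactive. Its lowest, median and highest library had 423, 481 and 522 CPM in Tfh2_1e4. The 5 libraries of Tfh2_2e4 had 479, 447, 431, 434 and 484 CPM. In Tfh2_4e4 the range was 238 to 317 CPM with a median of 284, and in Tfh2_6e4 it was 241 to 263 CPM with a median of 248. Each library of the 2 lower numbers was above each library of the 2 upper ones. The slope was -0.40 (SE 0.03, edgeR adjusted p 5.30e-16), the smallest adjusted p among the 36 genes.

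Hsp90b1 encodes GRP94, the ER member of the HSP90 family, which folds integrins and Toll-like receptors. It ran from 213 to 345 CPM (median 265) in Tfh2_1e4, and Tfh2_2e4 had 245, 268, 320.0, 291 and 373 CPM. Tfh2_4e4 ran from 183 to 261 CPM (median 212) and Tfh2_6e4 from 149 to 206 CPM (median 187). Here Tfh2_4e4 overlapped with both lower groups, and only Tfh2_6e4 lay below each library of Tfh2_1e4 and Tfh2_2e4. The slope was -0.25 (SE 0.04, edgeR adjusted p 2.92e-06).

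Creld2 and Manf, small secreted ER proteins that are known to be induced by ER stress, had the largest fall among the chaperones. Creld2 ran from 12.5 to 19.8 CPM (median 14.9) in Tfh2_1e4, was at 13.6, 8.07, 8.86, 13.8 and 11.7 CPM in Tfh2_2e4, and ran from 3.83 to 8.12 CPM (median 5.56) in Tfh2_4e4 and from 2.80 to 6.02 CPM (median 3.73) in Tfh2_6e4. The top library of Tfh2_4e4 just reached the bottom library of Tfh2_2e4, and Tfh2_1e4 was clear of both upper groups. Its slope was -0.75 (SE 0.08, edgeR adjusted p 4.40e-11). Manf ran from 68.4 to 112 CPM (median 90.4) in Tfh2_1e4 and was at 76.0, 48.3, 83.8, 58.4 and 99.2 CPM in Tfh2_2e4. It ran from 25.6 to 56.6 CPM (median 36.1) in Tfh2_4e4 and from 25.7 to 53.0 CPM (median 34.9) in Tfh2_6e4. Tfh2_1e4 stood above both upper groups, and Tfh2_2e4 overlapped with them. The slope of Manf was -0.57 (SE 0.07, edgeR adjusted p 1.06e-09).

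Of the BiP co-chaperones, Dnajb11 (ERdj3), which binds unfolded chains ahead of BiP, had a slope of -0.48 (SE 0.05, edgeR adjusted p 2.60e-11). It ran from 37.9 to 49.4 CPM in Tfh2_1e4 and from 16.9 to 24.9 CPM in Tfh2_6e4, without overlap. Sdf2l1, which works with ERdj3, had -0.32 (SE 0.07), and Hyou1, the nucleotide exchange factor of BiP, had -0.29 (SE 0.07). Dnajc3 (P58IPK), which also restrains PERK, had the smaller slope of -0.15 (SE 0.04). Dnajb9 (ERdj4), a repressor of IRE1, did not pass at -0.08 (interval -0.35 to 0.18), with 5 to 48 counts a Tfh2 library. The lectin chaperones that bind glycoproteins went apart: Calr, the soluble one, had -0.26 (SE 0.06), and Canx, anchored in the membrane, had 0.02 (interval -0.05 to 0.08). Canx ran from 198 to 304 CPM in Tfh2_4e4 and from 219.5 to 278 CPM in Tfh2_1e4, so these groups overlapped.

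**Figure D3:**
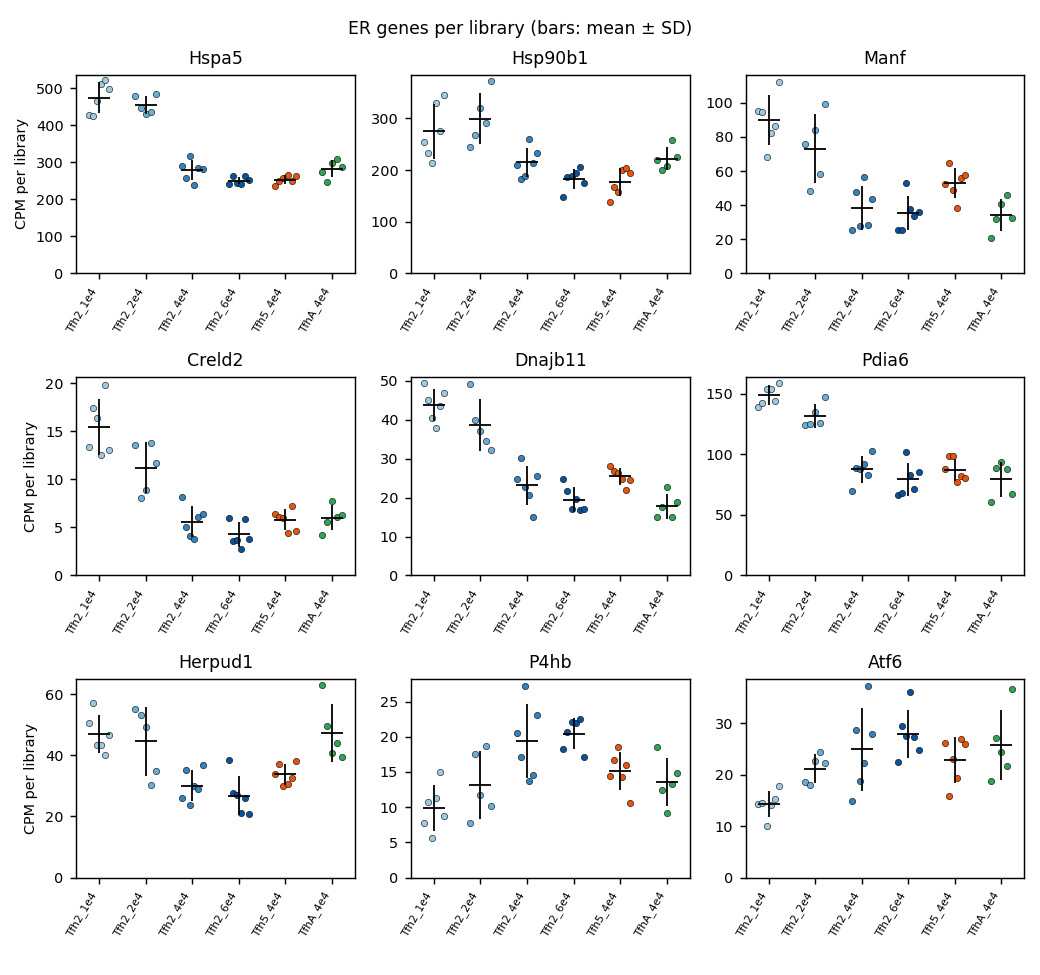
CPM of 9 ER genes in each of the 34 libraries (points), by group, with bars for the mean and SD on axes that start at 0. Hspa5, Dnajb11 and Pdia6 are clear of overlap between Tfh2_2e4 and Tfh2_4e4, Herpud1 is high again in TfhA_4e4, and P4hb and Atf6 run the other way.

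Disulfide isomerases form and shuffle disulfide bonds, and here 3 fell and 1 rose. Pdia6 ran from 139 to 159 CPM (median 149) in Tfh2_1e4, was at 124, 125, 135, 126 and 147 CPM in Tfh2_2e4, and ran from 70.0 to 103 CPM (median 88.3) in Tfh2_4e4 and from 66.4 to 101 CPM (median 76.9) in Tfh2_6e4. As for Hspa5, the lower and upper numbers did not overlap, and the slope was -0.38 (SE 0.04, edgeR adjusted p 2.87e-11). Pdia3, which works with the lectin chaperones and in loading of class I molecules, had -0.24 (SE 0.03), and Pdia4 had -0.11 (SE 0.04, adjusted p 0.0209). The call on Pdia4 was lost with the rRNA share as a covariate (adjusted p 0.124). P4hb, the founding protein disulfide isomerase, ran from 5.605 to 15.1 CPM (median 9.78) in Tfh2_1e4, was at 7.70, 17.5, 11.7, 18.7 and 10.1 CPM in Tfh2_2e4, and ran from 13.7 to 27.2 CPM (median 18.8) in Tfh2_4e4 and from 17.1 to 22.6 CPM (median 21.3) in Tfh2_6e4. Tfh2_6e4 was above each library of Tfh2_1e4, and the groups between overlapped with both. The slope of P4hb was 0.43 (SE 0.08, edgeR adjusted p 6.04e-06).

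The sensors did not share one direction. Atf6, the sensor that is cut in the Golgi to release a transcription factor, ran from 10.1 to 17.9 CPM (median 14.3) in Tfh2_1e4 and was at 18.6, 17.9, 22.8, 24.4 and 22.2 CPM in Tfh2_2e4. It ran from 14.9 to 37.4 CPM (median 25.1) in Tfh2_4e4 and from 22.5 to 36.2 CPM (median 27.4) in Tfh2_6e4. Its slope was 0.36 (SE 0.06, edgeR adjusted p 7.34e-06), opposite in sign to that of Hspa5. Eif2ak3 (PERK) had medians of 14.5, 12.2, 11.8 and 10.7 CPM from 1e4 to 6e4, with 9.48 to 18.1 CPM in Tfh2_1e4, 13.3, 13.2, 12.2, 8.89 and 12.05 CPM in Tfh2_2e4, 10.1 to 14.0 CPM in Tfh2_4e4 and 5.56 to 13.5 CPM in Tfh2_6e4. These groups overlapped, and the slope of -0.15 (SE 0.07) passed barely, at an edgeR adjusted p of 0.0497. The call was lost when any of 9 libraries was left out (1e4 replicates 2, 3, 4 and 6, 2e4 replicate 2, 4e4 replicate 5, and 6e4 replicates 1, 2 and 3), with adjusted p between 0.0127 and 0.103 over the libraries left out.

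Ern1 (IRE1) was near the limit of detection. It ran from 1.01 to 1.76 CPM (median 1.55) in Tfh2_1e4, was at 1.10, 0.769, 1.83, 1.32 and 0.834 CPM in Tfh2_2e4, and ran from 0 to 3.28 CPM (median 0.908) in Tfh2_4e4 and from 0.579 to 3.51 CPM (median 2.24) in Tfh2_6e4. At 0 to 28 counts a library the groups overlapped, and a slope of 0.16 (interval -0.23 to 0.55) was not distinguishable from 0. Xbp1, whose message IRE1 splices, ran from 41.7 to 72.0 CPM (median 58.7) in Tfh2_1e4, was at 52.7, 41.2, 69.7, 38.0 and 75.5 CPM in Tfh2_2e4, and ran from 30.2 to 83.4 CPM (median 45.8) in Tfh2_4e4 and from 37.6 to 69.1 CPM (median 47.6) in Tfh2_6e4. All of these overlapped, with a slope of -0.10 (interval -0.23 to 0.04). A gene count does not tell spliced from unspliced Xbp1, and cleavage of ATF6 or phosphorylation of PERK cannot be read from RNA.

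ER-associated degradation returns misfolded proteins to the cytosol for destruction. Herpud1, a scaffold of the degradation complex, ran from 40.02 to 57.1 CPM (median 45.1) in Tfh2_1e4 and was at 55.3, 53.3, 49.4, 30.4 and 34.8 CPM in Tfh2_2e4. It ran from 23.8 to 36.8 CPM (median 29.4) in Tfh2_4e4 and from 20.6 to 38.6 CPM (median 26.6) in Tfh2_6e4. Each library of Tfh2_1e4 was above both upper groups, and 2 libraries of Tfh2_2e4 were among them. The slope of Herpud1 was -0.34 (SE 0.05, edgeR adjusted p 7.98e-07). Derl3, a derlin found mainly in secretory cells, had a slope of -0.62 (SE 0.19, edgeR adjusted p 0.00667) on few counts. It ran from 1.65 to 3.49 CPM (median 2.03) in Tfh2_1e4, was at 5.36, 1.79, 1.41, 3.59 and 1.48 CPM in Tfh2_2e4, and ran from 0.937 to 3.38 CPM (median 1.21) in Tfh2_4e4 and from 0 to 1.17 CPM (median 0.849) in Tfh2_6e4. Tfh2_6e4 lay below each library of Tfh2_1e4 and Tfh2_2e4 and overlapped with Tfh2_4e4. Sel1l, the adaptor of the ubiquitin ligase, passed at -0.10 (SE 0.04, adjusted p 0.0358), and lost the call without Tfh2_1e4 replicate 3 or Tfh2_6e4 replicate 3 (adjusted p up to 0.0528). Syvn1 (HRD1), the ligase itself, had -0.07 (interval -0.44 to 0.29) on 5 to 113 counts a Tfh2 library. Edem1 (0.05) and Edem2 (0.02), which select glycoproteins for degradation, and Derl1 (-0.02) and Derl2 (-0.11), which form the exit channel, did not pass either.

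At the translocon, Spcs1 and Spcs2 of the signal peptidase fell with slopes of -0.24 (SE 0.04, edgeR adjusted p 2.81e-06) and -0.27 (SE 0.03, edgeR adjusted p 3.64e-09). Spcs1 ran from 65.9 to 87.4 CPM (median 74.4) in Tfh2_1e4, was at 70.1, 62.8, 67.6, 59.9 and 68.7 CPM in Tfh2_2e4, and ran from 44.2 to 70.2 CPM (median 57.7) in Tfh2_4e4 and from 41.5 to 60.6 CPM (median 45.9) in Tfh2_6e4. Spcs2 ran from 148 to 195 CPM (median 163) in Tfh2_1e4, was at 154, 130.1, 163, 156 and 173 CPM in Tfh2_2e4, and ran from 113 to 138 CPM (median 126) in Tfh2_4e4 and from 86.4 to 112 CPM (median 102) in Tfh2_6e4. For both genes Tfh2_6e4 was clear of Tfh2_1e4, and neighbouring groups overlapped, except that Spcs2 in Tfh2_6e4 was also clear of Tfh2_4e4. Sec61a1 (-0.12) and Sec61b (-0.24), subunits of the channel, fell, and Sec61g (0.18) did not pass. The call on Sec61a1 was lost with the rRNA share as a covariate (edgeR adjusted p 0.0984). The 4 subunits of the translocon-associated protein complex split, with Ssr2 at -0.22 (SE 0.05), Ssr1 at 0.20 (SE 0.04), Ssr3 at 0.12 (SE 0.04) and Ssr4 at 0.01 (SE 0.04). The calls on Ssr1 and Ssr3 were lost with library totals in place of TMM factors, at slopes of 0.10 and 0.01.

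The steps between neighbouring numbers were also tested, and the difference between steps was not. In Tfh2_4e4 against Tfh2_2e4, 9 of the 36 genes were lower and 0 higher, where 5.4% of all genes were lower and 7.59% higher. The median was -0.21 over the 36 genes and -0.00 over all genes. Lower were Creld2 (-1.01, SE 0.22), Manf (-0.93, SE 0.19), Dnajb11 (-0.74, SE 0.14), Hspa5 (-0.71, SE 0.08), Pdia6 (-0.59, SE 0.11), Herpud1 (-0.57, SE 0.15), Hsp90b1 (-0.48, SE 0.12), Spcs2 (-0.30, SE 0.10) and Pdia3 (-0.30, SE 0.10). For Hspa5, Dnajb11 and Pdia6 the libraries of the groups did not overlap. How many of all genes lacked overlap was not counted, in this step or in any other comparison. Hspa5 in Tfh2_4e4 was at 0.612 of its level in Tfh2_2e4 (edgeR adjusted p 1.75e-08). Pdia3 was at 370.1, 351, 314, 352 and 208 CPM in Tfh2_2e4 and at 242 to 281 CPM (median 261) in Tfh2_4e4, so a single library of Tfh2_2e4 lay under the whole of the other group. Its adjusted p of 0.0439 rose above 0.05 when any of 7 libraries was left out (2e4 replicates 1, 2, 4 and 5, and 4e4 replicates 2, 4 and 5), with a highest value of 0.134. Spcs2 lost its call without 2e4 replicate 6 or 4e4 replicate 5 (adjusted p up to 0.0652). Without the pair of libraries that stood apart 8 were lower, and Hsp90b1 was then at an adjusted p of 0.0501. With library totals in place of TMM factors the median of all genes moved by -0.20, risers among called genes from 58.4% to 23.0%, and 15 ER genes were lower.

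Neither of the other steps gave a call among the 36 genes. In Tfh2_6e4 against Tfh2_4e4 10 of 11 chaperones were below 0 (median -0.15, all genes -0.01), with 0 at an unadjusted p under 0.05. In Tfh2_2e4 against Tfh2_1e4 7 of 11 were below 0 (median -0.06, all genes 0.02). The share of all genes below 0 was not counted in either step. In Tfh2_2e4 against Tfh2_1e4 edgeR called 0 higher and 0 lower, with 4.06% of all genes higher and 1.2% lower, and DESeq2 and limma-voom also called 0. At an unadjusted p under 0.05, where 15.7% of all genes stood, there were 2: Creld2 (-0.47, interval -0.89 to -0.04) and Atf6 (0.56, interval 0.20 to 0.92). For Atf6 the libraries did not overlap but nearly touched (17.93 CPM lowest in Tfh2_2e4, 17.91 CPM highest in Tfh2_1e4), at an edgeR adjusted p of 0.0699. In Tfh2_6e4 against Tfh2_4e4 edgeR called 0 higher and 0 lower, with 0.616% and 0.863% of all genes, DESeq2 called 0 higher and 1 lower, limma-voom called 0, and edgeR with the replicate number as a block called 1 lower. There 5 had an unadjusted p under 0.05, beside 12.5% of all genes: Spcs2 (-0.31), Pdia3 (-0.22), Spcs1 (-0.26), Derl3 (-1.27) and Ssr3 (0.27). Spcs2 came closest, at an adjusted p of 0.0761 and without overlap between its libraries. The call of 1 higher ER gene without Tfh2_4e4 replicate 4 was the sole change when libraries were left out of that step.

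The promoter letters can be set beside the slopes as a description. Of the 9 genes with the ER stress element, 7 fell and 0 rose (Canx and Syvn1 did not pass), and of the 21 genes with a promoter but without it 10 fell and 3 rose. Among all tested genes with the element 8 of 15 fell (53.3%), against 23.3% of those without it. The 6 genes with the element outside the 36 were Spats2l, Hnrnpa3, Pan2, Ero1b, Alg12 and Xlr3a, named after their values were seen. Of these, Hnrnpa3 fell (-0.42, SE 0.06), Spats2l rose (0.97, SE 0.22), and the other 4 did not pass. Genes within the 36 were chosen for their ER role, so these shares are not independent of it.

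At the number 4e4, 3 comparisons of codes share groups with each other, and their values are given side by side. The question was how ER genes differ between cells labelled TfhA, Tfh2 and Tfh5 at one number. In TfhA_4e4 against Tfh2_4e4, 2 of the 36 genes were higher and 5 lower, where 15.5% of all genes were higher and 17.4% lower. In TfhA_4e4 against Tfh5_4e4, 6 were higher and 9 lower, where 19.1% were higher and 20.4% lower. The median over the 36 genes was -0.15 and 0.01 in these comparisons, with -0.01 and 0.00 over all genes. The shares of ER genes called were below those of all genes against Tfh2_4e4 and near them against Tfh5_4e4. Leaving out Tfh2_4e4 replicate 1, Tfh2_4e4 replicate 2 or TfhA_4e4 replicate 5 left 3 lower genes against Tfh2_4e4, and leaving out TfhA_4e4 replicate 6 left 2. With the rRNA share as a covariate 4 were higher and 3 lower against Tfh2_4e4 (Hsp90b1 among the lower ones, at -0.41 with an adjusted p of 0.0495), and 4 higher and 4 lower against Tfh5_4e4. That share was 12.6% to 17.3% in TfhA_4e4 and at most 11.1% in Tfh2_4e4 and Tfh5_4e4. Share and code therefore cannot be told apart in these comparisons, here and for the single genes below.

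**Figure D4:**
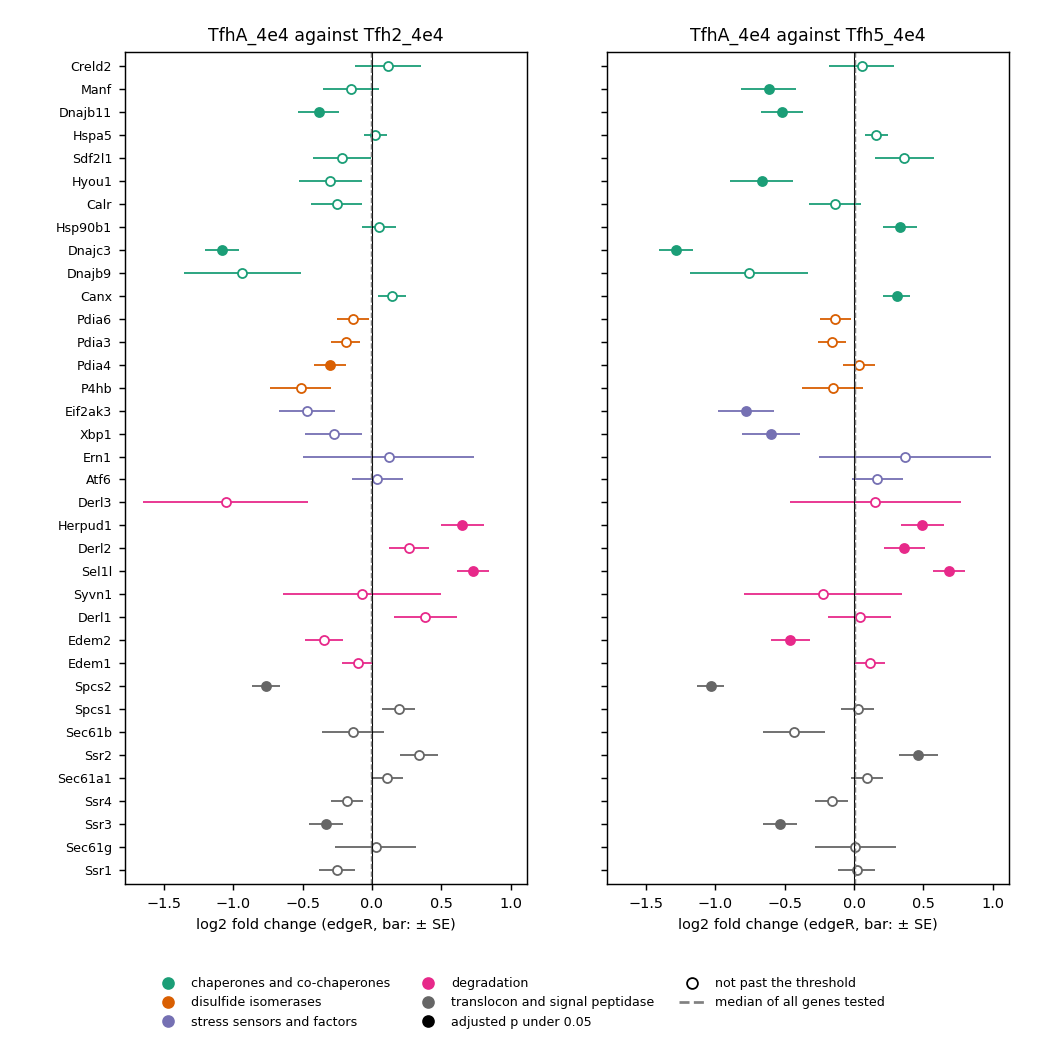
Log2 fold change of each ER gene in TfhA_4e4 against Tfh2_4e4 (left) and against Tfh5_4e4 (right), with bars for the standard error; the panels share the TfhA_4e4 libraries. Sel1l and Herpud1 are filled on the right of 0 and Dnajc3 and Spcs2 on the left in both panels, and Hspa5 is near 0.

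Dnajc3 and Spcs2 were lower in TfhA_4e4 than in either other code. Dnajc3, the co-chaperone that restrains PERK, was at 49.5, 31.9, 53.0, 49.2 and 42.3 CPM in TfhA_4e4. It ran from 77.0 to 119 CPM (median 96.8) in Tfh2_4e4 and from 93.9 to 140.0 CPM (median 104) in Tfh5_4e4. The TfhA_4e4 libraries were below all others, with -1.08 (SE 0.12, edgeR adjusted p 9.47e-10) against Tfh2_4e4 and -1.29 (SE 0.12, edgeR adjusted p 6.35e-12) against Tfh5_4e4. Spcs2 was at 65.8, 71.0, 91.6, 72.7 and 69.3 CPM in TfhA_4e4, at 113 to 138 CPM (median 126) in Tfh2_4e4 and at 142 to 175 CPM (median 146) in Tfh5_4e4. Again no library overlapped, with -0.76 (SE 0.10, edgeR adjusted p 2.05e-08) and -1.04 (SE 0.10, edgeR adjusted p 5.82e-12).

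Sel1l and Herpud1, both of the HRD1 degradation complex, were higher in TfhA_4e4. Sel1l was at 77.7, 51.8, 62.6, 72.7 and 67.9 CPM there, at 33.8 to 46.0 CPM (median 40.1) in Tfh2_4e4 and at 31.8 to 45.9 CPM (median 43.4) in Tfh5_4e4. None of these libraries overlapped, with 0.73 (SE 0.12, edgeR adjusted p 2.30e-06) and 0.68 (SE 0.12, edgeR adjusted p 5.24e-06). Herpud1 was at 63.0, 49.7, 40.7, 44.1 and 39.5 CPM in TfhA_4e4, at 23.8 to 36.8 CPM (median 29.4) in Tfh2_4e4 and at 30.0 to 38.2 CPM (median 33.3) in Tfh5_4e4. The groups did not overlap, though the lowest TfhA_4e4 library came near the highest of Tfh5_4e4. The differences were 0.65 (SE 0.16, edgeR adjusted p 0.000854) and 0.49 (SE 0.16, edgeR adjusted p 0.00990), and without TfhA_4e4 replicate 1 the second was 0.38 (adjusted p 0.0634). Summed over the 8 degradation genes, TfhA_4e4 had 231 to 251 CPM, Tfh2_4e4 184 to 211 CPM and Tfh5_4e4 190 to 212 CPM. The other 6 genes without Sel1l and Herpud1 summed to 123 ± 9.67 CPM (SD, n = 5) in TfhA_4e4, 127 ± 8.97 (n = 6) in Tfh2_4e4 and 121 ± 7.47 (n = 6) in Tfh5_4e4, so the higher sum lay in those 2 genes.

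The central chaperone gave no call between the codes. Hspa5 was at 275, 246, 298, 308 and 286 CPM in TfhA_4e4, at 238 to 317 CPM (median 284) in Tfh2_4e4 and at 236 to 267 CPM (median 254) in Tfh5_4e4. The TfhA_4e4 libraries lay within the range of Tfh2_4e4, and 4 of the 5 were above all of Tfh5_4e4. The difference was 0.02 (interval -0.14 to 0.18) against Tfh2_4e4 and 0.16 (interval -0.0027 to 0.32, edgeR adjusted p 0.124) against Tfh5_4e4. Hsp90b1 was at 219, 199.8, 208, 258 and 225 CPM in TfhA_4e4 and at 138 to 204 CPM (median 181) in Tfh5_4e4. It was called higher against Tfh5_4e4 (0.33, SE 0.12, edgeR adjusted p 0.0270) with overlapping libraries. That call was lost without Tfh5_4e4 replicate 1, 2 or 3 or TfhA_4e4 replicate 5 (adjusted p up to 0.113), and the sign turned to -0.14 with the rRNA share as a covariate. Canx was also called higher against Tfh5_4e4 (0.31, SE 0.10, edgeR adjusted p 0.0109), and its value was -0.0094 with that covariate.

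Dnajb11, Pdia4 and Ssr3 were called lower against Tfh2_4e4 near the threshold. Dnajb11 was at 14.9, 17.6, 22.7, 14.96 and 18.8 CPM in TfhA_4e4, and at 15.1 to 30.2 CPM (median 23.7) in Tfh2_4e4. The groups overlapped, with 2 TfhA_4e4 libraries below that range. Its -0.38 (SE 0.15) had an edgeR adjusted p of 0.0436 and was lost when any of 7 libraries was left out (Tfh2_4e4 replicates 1, 2 and 6, and TfhA_4e4 replicates 1, 2, 5 and 6; up to 0.132). It was also lost under 7 of 10 other alternatives, DESeq2, limma-voom and RLE factors among them, with -0.02 at the rRNA covariate. Pdia4 was at 86.7, 78.7, 83.5, 63.8 and 71.4 CPM in TfhA_4e4 and at 73.1 to 122 CPM (median 93.8) in Tfh2_4e4, and the groups overlapped. Its -0.30 (SE 0.12, edgeR adjusted p 0.0406) was lost without any of 6 libraries (Tfh2_4e4 replicates 1, 3 and 5, and TfhA_4e4 replicates 2, 5 and 6; up to 0.140) and under 6 of 10 other alternatives, DESeq2 and leaving out both libraries that stood apart among them. Ssr3 was at 57.8, 77.2, 72.6, 83.3 and 69.5 CPM in TfhA_4e4, at 67.0 to 127 CPM (median 87.7) in Tfh2_4e4 and at 94.0 to 112 CPM (median 108) in Tfh5_4e4. It overlapped with Tfh2_4e4 and was clear of Tfh5_4e4, with -0.33 (SE 0.12, edgeR adjusted p 0.0307) and -0.54 (SE 0.12, edgeR adjusted p 0.000348). The former was lost without Tfh2_4e4 replicate 2 or 4 or TfhA_4e4 replicate 1 or 6 (up to 0.153) and under 4 of 10 other alternatives, limma-voom among them.

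Against Tfh5_4e4 further genes passed. Eif2ak3 was at 6.96, 9.73, 9.61, 7.78 and 8.69 CPM in TfhA_4e4, at 10.1 to 14.0 CPM (median 11.8) in Tfh2_4e4 and at 11.5 to 18.2 CPM (median 14.4) in Tfh5_4e4. The TfhA_4e4 libraries lay below all of both, with -0.78 (SE 0.20, edgeR adjusted p 0.00149) against Tfh5_4e4 and -0.47 (SE 0.20, edgeR adjusted p 0.0671) against Tfh2_4e4. Xbp1 was at 30.0, 43.5, 42.9, 53.3 and 42.8 CPM in TfhA_4e4 and at 50.5 to 79.1 CPM (median 65.0) in Tfh5_4e4, with 1 TfhA_4e4 library in that range. Hyou1 was at 7.16, 8.90, 4.47, 6.46 and 6.11 CPM and at 8.13 to 12.4 CPM (median 10.8), again with 1 library in the range. Their differences were -0.60 (SE 0.21, edgeR adjusted p 0.0189) for Xbp1 and -0.67 (SE 0.23, edgeR adjusted p 0.0158) for Hyou1. Manf (-0.62, SE 0.20), Dnajb11 (-0.52, SE 0.15) and Edem2 (-0.46, SE 0.14) were lower, and Ssr2 (0.46, SE 0.14) and Derl2 (0.36, SE 0.15) higher. Xbp1 and Manf lost the call without TfhA_4e4 replicate 1 (adjusted p 0.0761 and 0.0653) and Hyou1 without TfhA_4e4 replicate 3 (0.0632). Derl2 lost it without any of 7 libraries (Tfh5_4e4 replicates 1 to 4, and TfhA_4e4 replicates 2, 3 and 6; up to 0.132). With the rRNA share as a covariate Hyou1, Dnajb11, Manf, Xbp1 and Edem2 no longer passed. Atf6 was at 18.9, 27.1, 24.5, 21.8 and 36.6 CPM in TfhA_4e4, at 14.9 to 37.4 CPM in Tfh2_4e4 and at 15.9 to 27.0 CPM in Tfh5_4e4, with overlap throughout. Ern1 was at 0.994, 1.66, 0.663, 1.32 and 1.88 CPM in TfhA_4e4 and at 0.177 to 1.59 CPM in Tfh5_4e4, which its counts could not tell apart (0.36, interval -0.85 to 1.58).

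Tfh5_4e4 against Tfh2_4e4 gave no call among the 36 genes in edgeR (0 higher, 0 lower), where 1.41% of all genes were higher and 1.7% lower. DESeq2 called 1 higher and 1 lower, limma-voom 0, and edgeR with the replicate number as a block 1 higher and 3 lower. At an unadjusted p under 0.05 there were 8, with 2 higher (Manf 0.46, Spcs2 0.27) and 6 lower (Derl3 -1.21, Sdf2l1 -0.58, Pdia4 -0.34, Hsp90b1 -0.28, Ssr1 -0.27, Edem1 -0.22), beside 14.6% of all genes. Spcs2 and Derl3 had no overlap between libraries, at edgeR adjusted p of 0.0938 and 0.285. Derl3 had only 4 to 7 counts a library in Tfh5_4e4. How many of all genes lacked overlap here was not counted. For Hspa5 the difference was -0.14 (interval -0.29 to 0.02). Leaving out Tfh2_4e4 replicate 4 gave 1 lower gene.

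Genes downstream of PERK and eIF2α, which do not belong to the 36, were mostly higher in TfhA_4e4. Of 10 tested, 8 were higher and 1 lower in TfhA_4e4 against Tfh2_4e4 (15.5% and 17.4% of all genes), with a median of 1.64 where the median of the 36 ER genes was -0.15. Ddit3 (CHOP), the stress factor that can promote cell death, was at 42.1, 30.9, 30.3, 33.2 and 44.6 CPM in TfhA_4e4, at 7.79 to 13.2 CPM (median 8.90) in Tfh2_4e4 and at 6.31 to 10.6 CPM (median 8.80) in Tfh5_4e4. Trib3, a pseudokinase induced by CHOP and ATF4, was at 34.4, 25.7, 21.7, 24.4 and 24.2 CPM, at 3.18 to 8.55 CPM (median 5.06) and at 2.53 to 6.72 CPM (median 4.36) in the same groups. Both genes in TfhA_4e4 lay above every other library of the study. The differences against Tfh2_4e4 were 1.95 (SE 0.22, edgeR adjusted p 1.40e-09) for Ddit3 and 2.24 (SE 0.25, edgeR adjusted p 7.81e-10) for Trib3. Atf5 (1.84), Sesn2 (1.44), Atf4 (1.003) and Cebpg (0.60) were also higher, as were Atf3 and Chac1, which were below 3 CPM in Tfh2_4e4. Ppp1r15a (GADD34), which ends the eIF2α signal, was lower at -0.91 (SE 0.28, adjusted p 0.00922). Of the other kinases of eIF2α, Eif2ak2 (PKR) was higher (0.92, SE 0.25) and Eif2ak1 (HRI) lower (-0.82, SE 0.15), and Eif2ak4 did not pass. The part of PERK or of any other kinase in the levels of these genes was not tested. Against Tfh5_4e4 the list also had 8 higher and 1 lower, and along the number in Tfh2 2 rose, 1 fell and 7 did not pass.

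**Figure D5:**
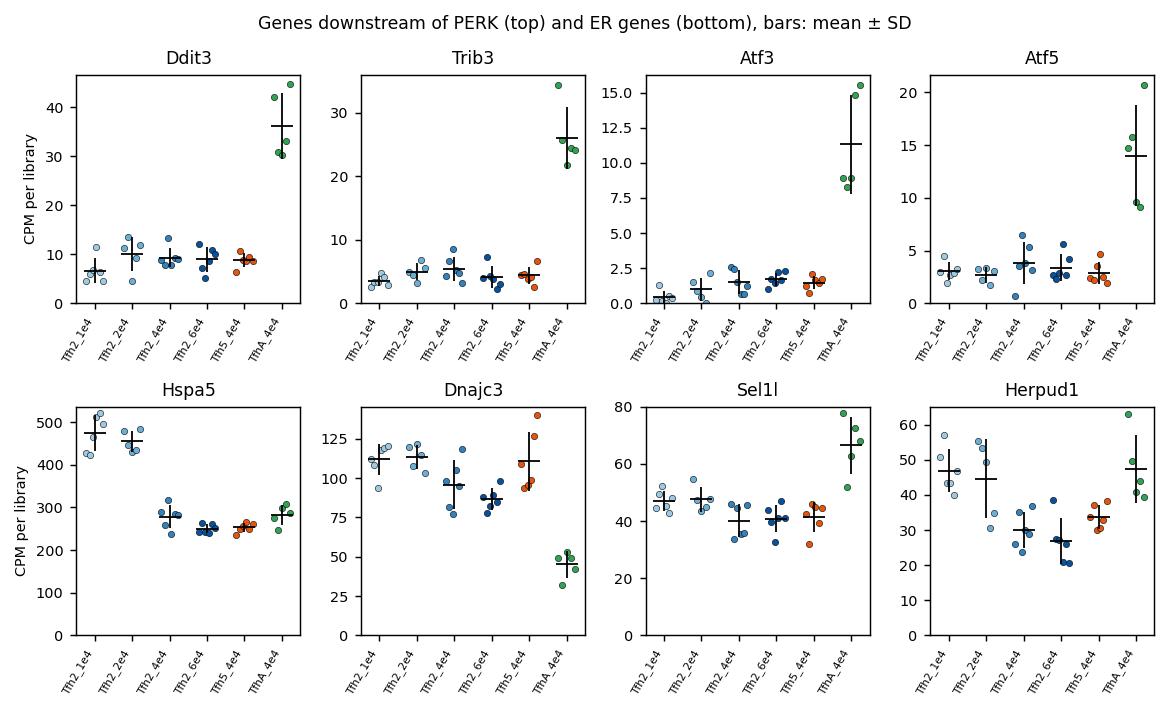
CPM in each library (points) of 4 genes downstream of PERK and eIF2α (top) and 4 ER genes (bottom), by group, with bars for the mean and SD on axes that start at 0. The TfhA_4e4 libraries are above every other library for Ddit3 and Trib3, within the range of Tfh2_4e4 for Hspa5, and below it for Dnajc3.

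Other genes of the secretory pathway showed no common direction along the number, where 24.1% of all genes rose and 22.8% fell. Of 23 further ER folding genes tested, 5 rose and 2 fell with the slope, and the median was 0.03. Ero1a encodes the oxidase that recharges the isomerases. Its mean was 28.6 ± 5.82 CPM in Tfh2_1e4 and 157 ± 19.3 CPM in Tfh2_6e4 (SD, n = 6 each), and its slope of 0.96 (SE 0.05) had an edgeR adjusted p of 7.01e-21. Sdf4, a calcium-binding protein of the secretory pathway, rose by 0.53 (SE 0.04), and Fkbp2, an ER prolyl isomerase, fell by 0.63 (SE 0.09). N-glycosylation genes had 2 rises and 5 falls of 13, with Rpn1 and Ostc, subunits of the oligosaccharyltransferase, at -0.29 and -0.30. Further degradation genes had 4 rises and 6 falls of 19, genes of ER entry 2 and 4 of 13 (Sec11c, a catalytic subunit of the signal peptidase, at -0.44), stress regulators 2 and 2 of 12, and genes of export and retrieval 3 and 4 of 16. Chaperones outside the ER were similarly split: cytosolic chaperones had 4 rises and 4 falls of 22, with Hsph1 at -0.37, and mitochondrial ones 2 rises and 1 fall of 11. The difference between these lists and the 36 genes was not tested.

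In TfhA_4e4 against Tfh2_4e4, where 15.5% of all genes were higher and 17.4% lower, the same lists were mixed. Further ER folding genes had 5 higher and 2 lower of 23, with Rcn1 (1.21, SE 0.31) and Sdf4 (1.04, SE 0.11) highest and Selenof (-1.09, SE 0.42) lowest. Further degradation genes had 1 higher and 3 lower of 19, led by Edem3 (-1.67, SE 0.24), a mannosidase that marks glycoproteins for degradation. ER entry had 3 lower of 13, with Srp68 (-0.82) of the signal recognition particle and Tram1 (-0.82) beside the translocon. N-glycosylation had 1 higher and 2 lower of 13, export and retrieval 2 lower of 16, stress regulators 1 lower of 12 and cytosolic chaperones 2 higher and 2 lower of 22. Mitochondrial chaperones and proteases had 5 higher and 1 lower of 11: Hspa9 (0.64) and Hspd1 (0.54), which fold proteins in the matrix, were among the higher ones, and Afg3l2 (-0.95), a protease of the inner membrane, was lower.

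Replicate spread set what could be seen for each gene. The median over groups of the coefficient of variation between libraries was 6.91% for Pdia3, the lowest, and 67.6% for Syvn1, the highest, with 15.9% in the middle of the 36 genes. Ern1, Derl3, Dnajb9 and Syvn1 had at most 813 counts each over all 34 libraries, so differences in them were not detectable unless large. Ordered by group mean, 15 of the 36 genes were highest in Tfh2_1e4 and 14 were lowest in TfhA_4e4. The same was not counted over all genes tested, so these counts cannot be read as particular to the ER genes. Most neighbouring groups in that order overlapped library by library. In the annotation 8 of the 36 genes overlap another gene: Hspa5 (Rabepk), Pdia3 (Catsper2), Pdia4 (Mir704), Pdia6 (Atp6v1c2), Syvn1 (Mrpl49), Derl2 (Mis12), Spcs1 (Glt8d1) and Spcs2 (Xrra1). The strand setting of the counting is not given in the sources used here. Values of these 8 genes may hold reads of their partner, which for Syvn1 had 3870 counts against 813 of the gene itself. For Derl2 the partner had 3060 counts against 6419, for Spcs1 2189 against 16546 and for Hspa5 4078 against 88080. Partners of the remaining genes had at most 202 counts.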

How the data were processed

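RNA of 34 libraries in 6 label groups was measured as whole-number counts per gene, deposited by the authors for each library under numeric mouse gene identifiers. STAR 2.7.2b and featureCounts 1.6.4 stand in the submitters' processing notes beside the build mm10, with no roles given. Strand and multi-mapping settings are not given in the sources used here. A joined table repeats the counts and was not needed. Symbols came from the RefSeq gene table. The 2 most abundant identifiers had no symbol there and held 48.34% of all counts, and they stay in the library totals. The members, lists and tests were chosen with earlier results of these data known.

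Genes were kept by edgeR's filterByExpr (11357 tested), scaled by TMM and tested with edgeR 4.0.16 (R 4.3.3) quasi-likelihood tests in 1 fit of all 6 groups. The slope regresses the means of the 4 Tfh2 groups on the log2 number. The SE is the size of the log2 change divided by the root of the F statistic. P-values were adjusted by Benjamini-Hochberg over all tested genes with a threshold of 0.05, and log2 CPM used a prior count of 1. Intervals are 95% (normal approximation from the SE). Levels are given for up to 2 called members of each role and comparison with the largest change, and for the sensors, Hspa5 and Hsp90b1. They are printed library by library in Tfh2_2e4 and TfhA_4e4, and in the other groups as the range, mostly with the median. From each other list up to 3 called genes with the largest change were named per comparison. Of the genes downstream of PERK all called ones were named in TfhA_4e4 against Tfh2_4e4, and only counts were given elsewhere. The fits were first tested on simulated data. Alternatives used DESeq2 1.42.0, limma-voom (limma 3.58.1), RLE factors, library totals with no scaling, totals without the 2 top identifiers, no filter, only the compared groups, the mitochondrial rRNA share as a covariate, a replicate block, each library left out, and both libraries that stood apart left out. Tables and promoter searches used Python 3.11.15 with pandas 2.3.3.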

Additional observations from a re-analysis of the deposited data

Results flagged for a closer look

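In 8 of 216 sets of libraries looked at (36 genes in 6 groups, 3.70%), the highest or lowest library lay far from the others of its group by Dixon's criterion, where chance alone gives about 1 in 20. Hyou1 was at 4.88 CPM in Tfh2_6e4 replicate 2, with 8.03 to 9.50 CPM in the other libraries of the group. Eif2ak3 was at 8.89 CPM in Tfh2_2e4 replicate 5, against 12.05 to 13.3 CPM. Syvn1 was at 7.49 CPM in Tfh2_1e4 replicate 6, against 1.21 to 3.14 CPM, and at 10.5 CPM in Tfh2_2e4 replicate 6, against 0.769 to 3.37 CPM. Edem2 was at 39.0 CPM in Tfh5_4e4 replicate 2, against 27.2 to 30.97 CPM. Ssr1 was at 37.8 CPM in Tfh2_1e4 replicate 1, against 52.7 to 61.5 CPM. Ssr3 was at 99.4 CPM in Tfh2_1e4 replicate 6, against 77.3 to 85.2 CPM. Spcs2 was at 91.6 CPM in TfhA_4e4 replicate 3, against 65.8 to 72.7 CPM, and that library was still below each library of Tfh2_4e4 and Tfh5_4e4.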

How the results depend on the processing

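Over 5784 values of single ER genes under alternatives, 5622 stayed on their side of the threshold, 94 lost the call and 63 gained one with the same sign. The sign changed in 268, of which 263 were called in neither fit and are among the 5622, and 5 were called in one of the fits. Calls never lost at an unchanged sign numbered 19 of 25 for the slope and 6 of 9 for Tfh2_4e4 against Tfh2_2e4. They numbered 4 of 7 for TfhA_4e4 against Tfh2_4e4 and 7 of 15 for TfhA_4e4 against Tfh5_4e4. The last count includes Canx, which changed sign with the rRNA share (-0.0094, edgeR adjusted p 0.972) and did not keep its call there. Where no cause is named, the cause was not tested. For TfhA_4e4 against Tfh2_4e4 there were 5 lower ER genes, and 3 with DESeq2, 3 with RLE factors, 2 in the fit limited to the compared groups, 2 with library totals, 3 with limma-voom and 3 with the rRNA share. That covariate also gave 4 higher, and 1 of its 3 lower genes was Hsp90b1, which turned from 0.05 to -0.41 (adjusted p 0.0495). For TfhA_4e4 against Tfh5_4e4 the rRNA share left 4 lower, with Hsp90b1 at -0.14 and Canx at -0.0094. With library totals the slope had 2 higher ER genes. Canx (-0.095, edgeR adjusted p 0.0152) and Ssr4 (-0.0938, edgeR adjusted p 0.034) changed sign there and were called lower. Tfh2_4e4 against Tfh2_2e4 had 15 lower with library totals. In that step limma-voom called 1 higher. For Tfh5_4e4 against Tfh2_4e4 DESeq2 called 1 ER gene higher and 1 lower. For Tfh2_6e4 against Tfh2_4e4 the 168 genes called became 278 with DESeq2, 74 in the limited fit, 104 with library totals and 90 without both libraries that stood apart, and DESeq2 called 1 ER gene lower.

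Some settings moved the split of called genes. For Tfh2_6e4 against Tfh2_4e4 41.7% of them were higher, and 60.8% were in the limited fit, 66.9% with limma-voom and 31.7% with library totals. For Tfh2_2e4 against Tfh2_1e4 the share went from 77.2% to 62.5% (limited fit) and 65.2% (limma-voom), and for Tfh5_4e4 against Tfh2_4e4 from 45.3% to 57.5% (library totals).

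With the replicate number as a replicate block, Tfh5_4e4 against Tfh2_4e4 had 584 genes called in place of 353, with 1 ER gene higher and 3 lower, and Tfh2_6e4 against Tfh2_4e4 had 381, with 1 ER gene lower. What a replicate number pairs is not stated in the labels: 15 of 80 same-number pairs of libraries had a correlation of deviations above 0.1, and the best match of 15 of 34 libraries was the set of its own number.

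Leaving out 1 library at a time gave these ranges. TfhA_4e4 against Tfh2_4e4 had 3392 to 3786 genes called, with 2 to 3 ER genes higher and 2 to 6 lower. TfhA_4e4 against Tfh5_4e4 had 4181 to 4389, with 4 to 6 and 7 to 9. Tfh5_4e4 against Tfh2_4e4 had 239 to 403, with 0 and 0 to 1. The slope had 5111 to 5436, with 4 to 5 and 19 to 22. Tfh2_2e4 against Tfh2_1e4 had 428 to 598, with 0 and 0. Tfh2_4e4 against Tfh2_2e4 had 1141 to 1496, with 0 to 1 (1 without Tfh2_2e4 replicate 2 or 5) and 7 to 10. Tfh2_6e4 against Tfh2_4e4 had 55 to 269, with 0 to 1 and 0. That count of 168 became 81, 72 and 269 without Tfh2_4e4 replicates 1, 3 and 4, and 92, 107 and 55 without Tfh2_6e4 replicates 2, 4 and 5. Depth limits Ern1, Derl3, Dnajb9 and Syvn1.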
